A study of Mus musculus with 18 samples.

Results

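Potassium channel genes were taken as every gene whose symbol begins with Kcn on an Illumina mouse bead array, an array that measures RNA with short gene-specific probes. The table held 88 such genes among 19057 named genes. They were covered by 173 probes, and each gene was represented by the probe with the highest mean over the 18 arrays. Hippocampi of C57Bl6/J mice were compared between cannabis extract and vehicle, shortly after the feeding period and in adulthood. The extract, from GW Pharmaceuticals, was eaten daily at 20 mg/kg from postnatal day 14 (P14) to P28. It was carried in sweet condensed milk with olive oil, which the vehicle mice received alone. There were 4 groups: P28 vehicle (n = 4 arrays), P28 cannabis (n = 4), adult vehicle (n = 5) and adult cannabis (n = 5). The P28 mice were killed 70 to 80 min after their feeding began. The adults, given as P56 in the labels, had gone through behavioural tests and a phencyclidine challenge 2 weeks before they were killed. Their feeding had ended at P28. Age therefore cannot be told apart from this history, or from the recent feeding of the P28 mice. Nothing in the labels ties an array to 1 mouse, so p-values measure the spread between these arrays. No probe carries information on which hippocampal cells made an RNA, and fewer cells of a type and less RNA per cell cannot be told apart.

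Potassium channels let potassium leave a neuron and so set the resting potential, end the action potential and limit how often the cell fires. Voltage-gated families (Kcna, Kcnb, Kcnc, Kcnd, Kcnh and Kcnq) open on depolarisation, calcium-activated families (Kcnma and Kcnn) open when calcium rises, inward rectifiers (Kcnj) and leak channels of the tandem-pore family (Kcnk) act near rest, and a further set of Kcn genes encodes auxiliary subunits. Cannabinoids bear on this system because the CB1 receptor, through Gi/o proteins, opens the Kcnj3 and Kcnj6 type of inward rectifier and is known to modulate other potassium currents of hippocampal neurons.

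Values are log2 intensities. Unexpressed probes formed a peak at 6.76, and a probe counted as above background on an array at over 6.97. Because background had not been subtracted, the differences understate true fold changes, the more so the dimmer the probe. The 18 arrays correlated at 0.972 to 0.994 within groups. The arrays of replicates 4 and 5 (6 arrays) stood apart from those of replicates 1 to 3 (12 arrays) in all 4 groups, for a reason the labels do not give, and each P28 group held 1 such array against 2 in each adult group. Hippocampal markers were present: Prox1, of dentate granule neurons, read 8.47 to 9.43 and Wfs1, of CA1 pyramidal neurons, read 8.76 to 9.79, both above background on 18 of 18 arrays, while the pyramidal marker Neurod6 was above it on 1.

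Of the 88 genes, 51 were above background on at least 4 arrays (58.0%, against 55.7% of all named genes), 39 of them on all 18. The other 37 were above background on fewer than 4 arrays, 24 of them on none. A probe at background does not show that its gene is silent, since the probe of the abundant neuronal gene Snap25 was above background on 0 arrays.

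Of the auxiliary subunits, all 3 Kcnab genes, the beta subunits of Kcna channels, and all 4 Kcnip genes, calcium-binding partners of Kcnd channels, were above background on every array. Kcne genes passed in 3 of 5 cases, 1 of them on every array, and Kcnmb genes in 1 of 3. Among voltage-gated pore genes, 4 of 8 Kcna genes (Kcna1, Kcna2, Kcna3 and Kcna6), 3 of 3 Kcnc genes, 2 of 3 Kcnd genes, 4 of 8 Kcnh genes and 2 of 3 Kcnq genes passed. Among leak and rectifier genes, 6 of 14 Kcnk genes and 5 of 13 Kcnj genes passed. Kcnj8, a channel known from pericytes, and Kcnj9, a partner of Kcnj3 and Kcnj6, were above background on 2 and 0 arrays. Kcnma1, the pore of the large-conductance calcium-activated channel, was measured on all arrays together with its neuronal subunit Kcnmb4. The small-conductance genes Kcnn1 and Kcnn2 passed, and Kcnn3 and Kcnn4 did not. Kcnu1, a channel known from sperm, was above background on all 18 arrays, with group means of 7.62 to 7.69. Genes of the family without a probe here, including the Kcnb genes named in the background above, were not analysed.

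**Figure D1:**
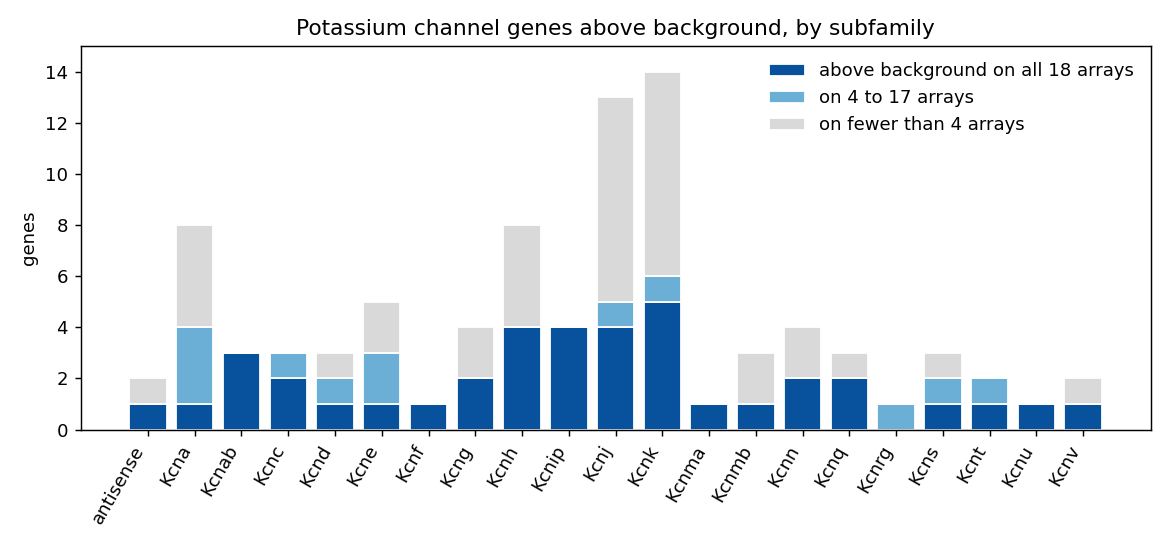
Number of potassium channel genes in each subfamily (bars, in genes) split by how many of the 18 arrays read above background. All 3 Kcnab and all 4 Kcnip genes were above background on every array, and 6 of 14 Kcnk and 5 of 13 Kcnj genes were above it on at least 4.

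Between cannabis and vehicle at P28, 27 of the 51 potassium channel genes had a higher mean and 24 a lower one, with a median difference of 0.00 on the log2 scale. In limma, 0 of the 51 passed an adjusted p of 0.05, as did 0 of all 18708 probes above background (0%). At an unadjusted p under 0.05 there were 2 of the 51 (3.92%), against 1.83% of all probes. The differences ran from −0.22 (Kcnj4) to 0.50 (Kcne2). The 95% intervals of 31 genes lay within a 1.2-fold change either way, and those of 49 lay within 1.5-fold, without background subtraction. For dim genes such intervals do not bound the true fold change.

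Among the auxiliary genes at P28, Kcnab1, whose beta subunit speeds the inactivation of Kcna channels, read 11.12, 11.14, 11.14 and 11.17 in the vehicle arrays and 11.29, 11.31, 11.32 and 11.28 in the cannabis arrays. Each cannabis array was above each vehicle array. The difference was 0.15 ± 0.08 (SE; limma adjusted p = 1.00, unadjusted p = 0.0805), where the SE pools all 4 groups and the adult groups were more spread. Its other probes above background differed by 0.12 and 0.03. Groups failed to overlap for 2 of the 51 genes, against 1.59% of all probes. The other was Kcnq1ot1, a non-coding RNA transcribed antisense to the gene of the Kcnq1 channel and known for imprinted silencing of that domain.

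Kcnq1ot1 read 8.05, 7.95, 7.93 and 8.07 in P28 vehicle and 8.27, 8.36, 8.34 and 8.12 in P28 cannabis. All 4 cannabis arrays were the higher ones, a difference of 0.27 ± 0.09 (95% interval 0.08 to 0.46, unadjusted p = 0.00819, limma adjusted p = 1.00). The gene of the Kcnq1 pore itself was above background on 1 array.

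Among the pore genes at P28, Kcnk1, a leak channel of the TWIK type, had a mean of 10.49 ± 0.07 (SD) in vehicle and 10.64 ± 0.10 in cannabis, a difference of 0.15 ± 0.07. The Gi/o-opened rectifiers Kcnj3 and Kcnj6 differed by 0.06 ± 0.07 and 0.05 ± 0.08. Kcnj6 was dim, at means of 7.09 in P28 vehicle and 7.14 in P28 cannabis. For the axonal Kcna channels, the differences were 0.05 for Kcna1, 0.05 for Kcna2, 0.01 for Kcna3 and −0.12 for Kcna6, each with an SE of 0.06 to 0.09. Kcnc1, a channel of fast-spiking interneurons, differed by 0.02 ± 0.10, Kcnc2 by −0.02 ± 0.05 and Kcnc4 by −0.13 ± 0.15. Kcnd1, a channel of transient A-type current, differed by −0.08 ± 0.05 and Kcnd2, its main dendritic relative in hippocampus, by −0.02 ± 0.13. Kcnf1, an electrically silent subunit, differed by −0.21 ± 0.17. Leaving out 1 array took Kcnf1 to −0.11 (P28 vehicle replicate 1) and Kcna6 to −0.05 or −0.20 (P28 cannabis replicate 1 or 2). Kcnj16, a rectifier subunit known from glia, differed by 0.01 ± 0.08. Each of these intervals included 0.

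Kcne2, an auxiliary subunit known from choroid plexus epithelium, had the largest difference of the family at P28. It read 7.02, 6.87, 7.25 and 6.84 in vehicle and 6.65, 7.76, 7.27 and 8.32 in cannabis, so the cannabis arrays held both the lowest value and the 3 highest. The difference was 0.50 ± 0.22 (95% interval 0.04 to 0.97, limma adjusted p = 1.00, unadjusted p = 0.0350). Within replicates 1 to 3 it was 0.18, and between the single arrays of replicate 4 it was 1.48. Without P28 cannabis replicate 4 the difference was 0.23, and without replicate 1 it was 0.79. Kcne2 was above background on 5 of 18 arrays, and its 4 highest arrays were the 4 highest for Ttr, the transthyretin gene that defines choroid plexus epithelium. Ttr read at least 13.60 on those 4 arrays and at most 11.66 on the other 14. In the choroid plexus list, 12 of its 12 genes above background had a higher mean in P28 cannabis than in P28 vehicle (median difference 0.62, 0 called by limma). The summed level of the list was 10.86 to 14.02 in P28 vehicle, 12.23 to 14.77 in P28 cannabis, 10.79 to 12.00 in adult vehicle and 11.10 to 11.60 in adult cannabis. The part of choroid plexus tissue in the Kcne2 difference was not tested.

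**Figure D2:**
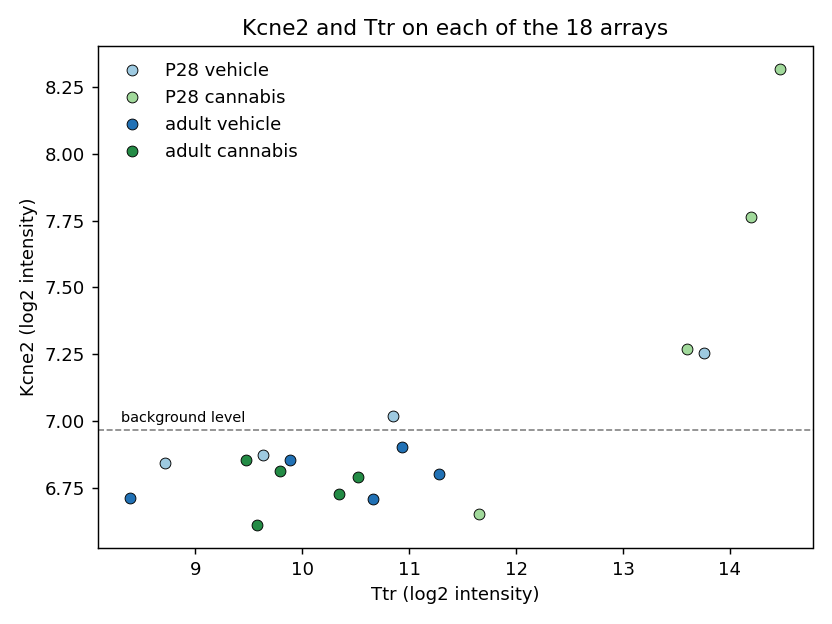
Kcne2 (vertical axis, log2 intensity) against Ttr (horizontal axis, log2 intensity), with 1 point per array coloured by group and a dashed line at the background level. The 4 arrays with Ttr at 13.60 or more, 3 of them P28 cannabis and 1 P28 vehicle, are the 4 highest for Kcne2, and all 10 adult arrays lie below the background level.

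In adults, whose feeding had ended at P28, 26 of the 51 genes had a higher mean in cannabis than in vehicle and 25 a lower one (median difference 0.00). In limma, 0 of 51 passed the adjusted threshold and 0 of 18708 probes did (0%), while 2 of 51 had an unadjusted p under 0.05 (3.92%, against 3.58% of all probes). The groups failed to overlap for 0 of the 51 genes, against 0.38% of all probes. Differences ran from −0.32 (Kcnq5) to 0.17 (Kcnn2). The 95% intervals of 31 genes lay within 1.2-fold and those of 50 within 1.5-fold, again without background subtraction.

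Kcnq5, which forms the slow M-type current of hippocampal neurons together with Kcnq3, had the smallest p in adults. It read 7.73, 7.92, 7.96, 7.88 and 7.99 in adult vehicle and 7.96, 7.48, 7.55, 7.41 and 7.48 in adult cannabis. Replicate 1 of the cannabis group stood among the vehicle arrays, and the other 4 were below all of them. The difference was −0.32 ± 0.10 (95% interval −0.53 to −0.11, unadjusted p = 0.00496, limma adjusted p = 1.00). A dimmer second probe of Kcnq5, with a mean of 7.03, differed by −0.05 ± 0.05. Kcnq3 itself differed by −0.02 ± 0.04.

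Kcnab1 was again higher on average in cannabis, at 11.24, 11.46, 11.42, 11.67 and 11.34 against 11.16, 11.44, 11.33, 11.34 and 11.06 in vehicle. The groups overlapped, and the difference of 0.16 ± 0.07 (unadjusted p = 0.0491, limma adjusted p = 1.00) compares with 0.15 ± 0.08 at P28. Without adult cannabis replicate 4, the array at 11.67, the adult difference was 0.10. The other Kcnab1 probes differed by 0.12 and 0.21 in adults. Kcnq1ot1, higher in cannabis at P28, read 8.31, 8.05, 8.16, 8.27 and 8.02 in adult vehicle and 8.11, 8.08, 8.15, 7.92 and 7.71 in adult cannabis, a difference of −0.17 ± 0.08 with overlapping groups. It was −0.10 without adult cannabis replicate 5, the array at 7.71.

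Among the other adult values, Kcnip3, a KChIP that also acts as a transcriptional repressor, differed by −0.14 ± 0.08 and Kcnip4 by 0.11 ± 0.08. They came to −0.09 without adult cannabis replicate 5 and 0.05 without adult cannabis replicate 3. Kcnc1 differed by −0.14 ± 0.09, Kcnc4 by −0.18 ± 0.14 and Kcnf1 by −0.22 ± 0.15. The interneuron list, whose cells carry Kcnc channels, had 8 of 10 genes lower in adult cannabis (median −0.13, 0 called), with a summed level of 14.06 to 14.24 in vehicle and 14.03 to 14.13 in cannabis. Other lists shifted further: 10 of 10 oligodendrocyte markers (median 0.27) and 5 of 6 immature neuron markers (median 0.27) were higher in adult cannabis, with 0 called. Their summed levels overlapped between the groups, at 14.29 to 14.98 in vehicle and 14.45 to 15.23 in cannabis for the first list and 10.58 to 10.97 and 10.69 to 11.59 for the second. The part of any of these cells in the adult channel differences was not tested. Kcna1, Kcna2 and Kcna3, all near background, and Kcna6 differed by −0.05, −0.06, 0.04 and 0.01, and Kcnj3 and Kcnj6 by 0.05 and −0.00. None of these intervals excluded 0.

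**Figure D3:**
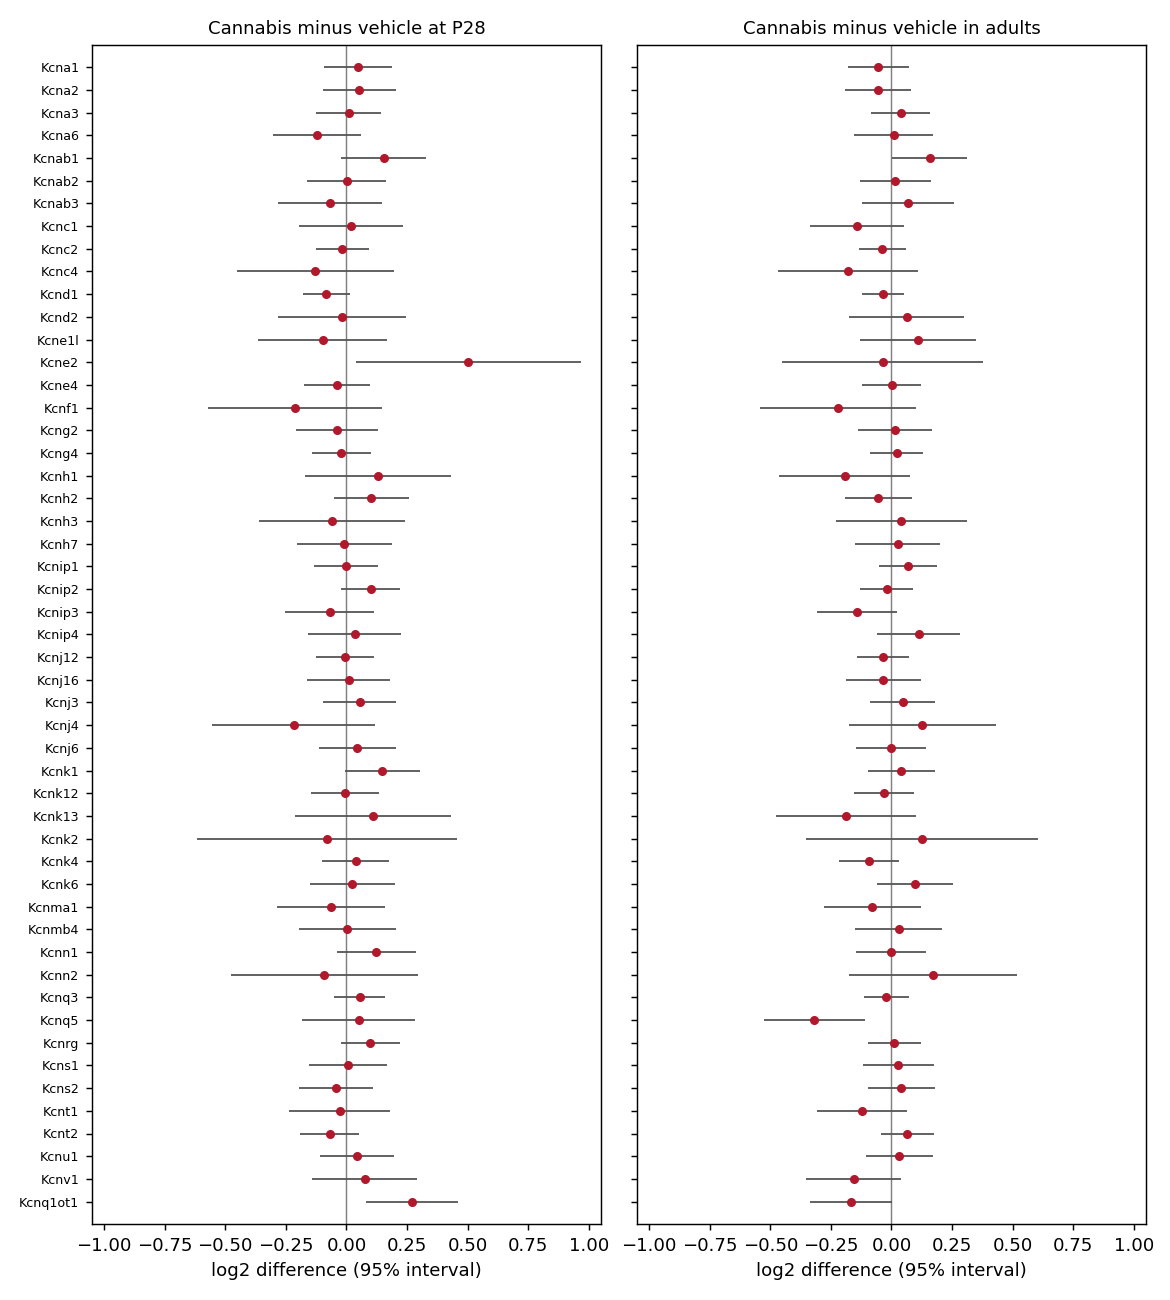
Cannabis minus vehicle (log2 difference, points, with 95% intervals as bars) of the 51 potassium channel genes above background, at P28 on the left and in adults on the right. Most points lie near 0. Kcne2 at P28 (0.50) and Kcnq5 in adults (−0.32) lie farthest from it.

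The difference between the adult and the P28 cannabis effect was tested as an interaction. It was below 0 for 28 of the 51 genes and above 0 for 23, with 0 passing in limma (0% of all probes) and 2 at an unadjusted p under 0.05, against 2.98% of all probes. Those 2 were Kcnq1ot1, at −0.44 ± 0.12 (95% interval −0.69 to −0.18, unadjusted p = 0.00214, limma adjusted p = 1.00), and Kcnq5, at −0.37 ± 0.15 (unadjusted p = 0.0235). For Kcnq1ot1 the means were 8.004 ± 0.07 (SD) in P28 vehicle, 8.27 ± 0.11 in P28 cannabis, 8.16 ± 0.13 in adult vehicle and 7.99 ± 0.18 in adult cannabis, so P28 cannabis had the highest mean and adult cannabis the lowest. Kcnj4, a strong inward rectifier of forebrain neurons, differed by −0.22 ± 0.16 at P28 and 0.13 ± 0.14 in adults, an interaction of 0.35 ± 0.22. Its P28 difference ran from −0.36 to −0.11 when P28 vehicle replicate 3 or 4 was left out. The cannabis effect had the same sign at both ages for 20 of 51 genes (39.2%, against 46.9% of all probes). Intervals are wider here: 16 of 51 lay within 1.2-fold and 43 within 1.5-fold, again without background subtraction.

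**Figure D4:**
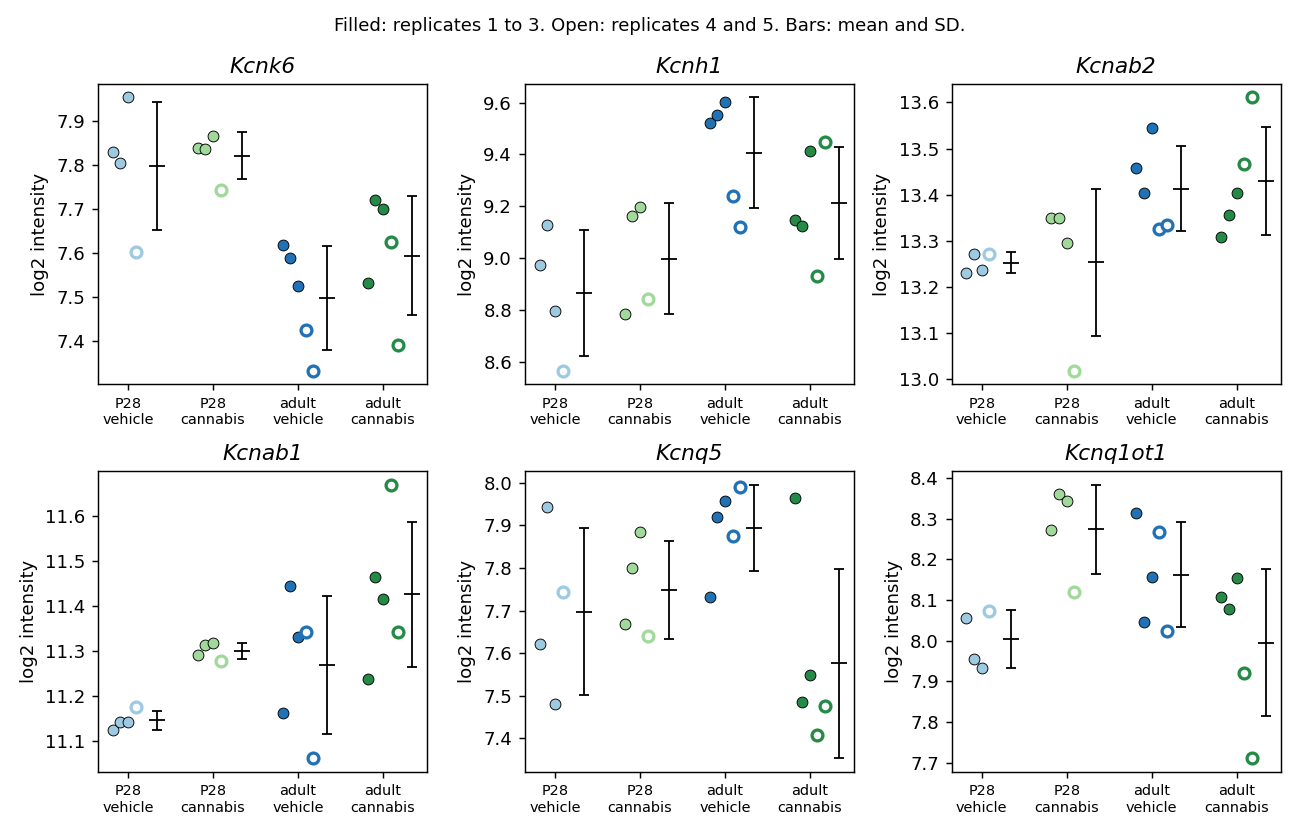
Log2 intensity of Kcnk6, Kcnh1, Kcnab2, Kcnab1, Kcnq5 and Kcnq1ot1 on each array (points) in the 4 groups, with the group mean and SD (n = 4 or 5). Open points are replicates 4 and 5, filled points replicates 1 to 3. Kcnk6 is lower and Kcnh1 higher in the adult groups, and Kcnq5 has 1 adult cannabis array at 7.96 above the other 4.

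With age, Kcnk6 was lower and Kcnh1 higher in adults when both treatments were averaged, and no other of the 51 genes passed. From P28 to adulthood in vehicle mice, limma called 194 of 18708 probes (1.04%) and 0 of the 51 genes. At an unadjusted p under 0.05 there were 6 of 51 (11.8%), against 13.4% of all probes. In cannabis mice, 5 probes were called (0.0267%), again 0 of the 51, with 6 of 51 at an unadjusted p under 0.05 against 10.6% of all probes. Medians were 0.01 in both, and 27 genes were higher and 24 lower in each. When the age difference was averaged over the treatments, a comparison chosen after seeing the data, 2 of the 51 passed (3.92%): Kcnk6, which fell, and Kcnh1, which rose. Over all probes 905 passed in that comparison (4.84%). At an unadjusted p under 0.05 there were 10 of 51 (19.6%), against 19.0% of all probes. Both shares of the potassium channel genes were near those of the whole array.

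Kcnk6, the tandem-pore leak channel TWIK2, read 7.83, 7.81, 7.95 and 7.60 in P28 vehicle and 7.84, 7.84, 7.87 and 7.74 in P28 cannabis. In adults it read 7.62, 7.59, 7.53, 7.42 and 7.33 with vehicle and 7.53, 7.72, 7.70, 7.63 and 7.39 with cannabis. Every adult cannabis array was below every P28 cannabis array, and in vehicle mice 1 P28 array (7.60) fell within the adult range. The age difference was −0.30 ± 0.08 in vehicle (95% interval −0.47 to −0.13, limma adjusted p = 0.0753) and −0.23 ± 0.08 in cannabis (adjusted p = 0.295). Averaged over the treatments it was −0.26 ± 0.06 (95% interval −0.38 to −0.15, limma adjusted p = 0.0119). A second probe of Kcnk6, near background with a mean of 7.03, differed by −0.09 ± 0.05.

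Kcnh1, a voltage-gated channel of the ether-a-go-go type, read 8.97, 9.13, 8.80 and 8.57 in P28 vehicle and 9.52, 9.55, 9.60, 9.24 and 9.12 in adult vehicle. With cannabis it read 8.78, 9.16, 9.20 and 8.84 at P28 and 9.15, 9.13, 9.42, 8.93 and 9.45 in adults. The adult vehicle arrays were higher, with 1 value of each age overlapping, and the cannabis groups overlapped broadly. The age difference was 0.54 ± 0.14 in vehicle (95% interval 0.26 to 0.83, limma adjusted p = 0.0619), 0.22 ± 0.14 in cannabis and 0.38 ± 0.10 averaged (95% interval 0.18 to 0.58, adjusted p = 0.0310). The 2 age differences themselves differed by −0.32 ± 0.19 (unadjusted p = 0.109). The Kcnh1 call was lost without any 1 of 7 arrays (adjusted p 0.0545 to 0.0683): P28 vehicle 3 or 4, P28 cannabis 1 or 4, adult vehicle 1 or 3, or adult cannabis 5. Among its relatives the vehicle age difference was 0.02 ± 0.07 for Kcnh2, −0.06 ± 0.14 for Kcnh3 and −0.07 ± 0.09 for Kcnh7.

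Kcnk6 and Kcnh1 also differed between replicates 4 to 5 and 1 to 3 within groups, by −0.18 ± 0.04 and −0.25 ± 0.09. With this split as a block, both passed already in vehicle mice (3.92% of the 51, against 2.23% of all probes in that fit): Kcnh1 at 0.58 (limma adjusted p = 0.0170) and Kcnk6 at −0.27 (adjusted p = 0.0240). Averaged over treatments with the block, 4 genes passed (7.84%, against 7.13% of all probes): Kcnk6, Kcnh1, Kcnab2 and Kcne2. Kcne2 was above background on 2 P28 vehicle, 3 P28 cannabis and 0 adult arrays. It met the filter of 4 arrays only through P28, so its lower adult level is not independent of the filter. Within replicates 1 to 3 alone, the averaged difference was −0.24 for Kcnk6 (adjusted p = 0.0404) and 0.39 for Kcnh1 (adjusted p = 0.0556). Within replicates 4 and 5 alone, it was −0.23 and 0.48, and neither passed.

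Kcnab2, a beta subunit of axonal Kcna channels, read 13.23, 13.27, 13.24 and 13.27 in P28 vehicle and 13.46, 13.40, 13.54, 13.33 and 13.33 in adult vehicle. These groups did not overlap, and it was the 1 gene of the 51 of which this held, against 6.09% of all probes. In cannabis mice it read 13.35, 13.35, 13.29 and 13.02 at P28 and 13.31, 13.36, 13.40, 13.47 and 13.61 in adults, with overlap. The differences were 0.16 ± 0.07 and 0.18 ± 0.07, and 0.17 ± 0.05 averaged (limma adjusted p = 0.0711). Kcnab2 and Kcnk6 were the 2 genes with an unadjusted p under 0.05 in the same direction in both treatments (3.92%, against 4.22% of all probes). For Kcnab2 the cannabis difference was 0.10 (limma adjusted p = 0.631) without P28 cannabis replicate 4, the array at 13.02. In cannabis mice, the groups failed to overlap for Kcnk6 and for Kcnt1, a sodium-activated channel, against 2.72% of all probes. Kcnt1 read 7.58 to 7.62 at P28 and 7.27 to 7.51 in adults, a difference of −0.19 ± 0.09.

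Other age differences did not pass the adjusted threshold. Kcnk13, a leak channel known from microglia, read 7.56, 7.69, 7.94 and 7.65 in P28 vehicle and 7.92, 8.01, 8.34, 8.07 and 8.12 in adult vehicle, a difference of 0.38 ± 0.15 (limma adjusted p = 0.242) with 1 array of each age in the range of the other. The microglial list had 7 of 8 genes lower in the same comparison (median −0.07, 0 called). Its summed levels overlapped, at 11.53 to 11.75 in P28 vehicle and 11.50 to 11.74 in adult vehicle. In cannabis mice 5 of the 8 were higher with age (median 0.07), as were 5 of 8 in the averaged comparison (median 0.03), with 0 called. The part of microglia in the Kcnk13 difference was not tested. In cannabis mice Kcnk13 differed by 0.08 ± 0.15. The silent subunit Kcns2 differed by 0.11 ± 0.07 in vehicle and 0.19 ± 0.07 in cannabis, and the auxiliary gene Kcne1l by −0.28 ± 0.12 and −0.07 ± 0.12. Kcna3, near background, differed by −0.13 ± 0.06 and −0.10 ± 0.06. The leak channel Kcnk4 differed by −0.01 ± 0.06 and −0.14 ± 0.06. Kcnc4 differed by 0.26 ± 0.15 and 0.21 ± 0.15, whereas Kcnc1 differed by 0.10 ± 0.10 and −0.06 ± 0.10. Kcnd2 and Kcnma1, pores of the dendritic A-type and the large calcium-activated current, differed by −0.08 ± 0.12 and −0.00 ± 0.10 in vehicle mice.

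Kcne2 and Kcnq1ot1 had the smallest p among the age differences in cannabis mice. Kcne2 was above background on 3 of 4 P28 cannabis arrays, 2 of 4 P28 vehicle arrays and no adult array, so it met the filter only through P28. Its lower adult level is therefore not independent of that filter. Its fitted difference was −0.74 ± 0.21 (limma adjusted p = 0.175), and against the background level it was at least 1.45-fold lower in adult cannabis. The fitted difference and the bound rest largely on P28 cannabis replicate 4 (8.32): without it they were −0.47 and 1.197-fold. The choroid plexus list had 12 of 12 genes lower (median −0.88, 0 called). Kcnq1ot1 differed by −0.28 ± 0.09 in cannabis mice (limma adjusted p = 0.217) and by 0.16 ± 0.09 in vehicle mice.

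**Figure D5:**
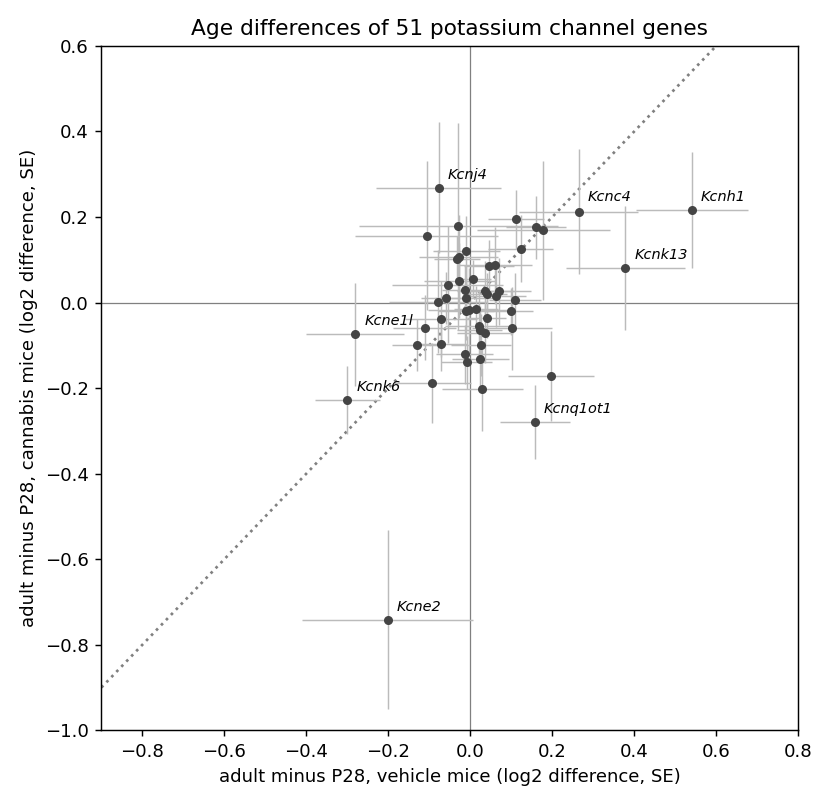
Adult minus P28 (log2 difference, bars are SE) of the 51 potassium channel genes above background, in vehicle mice (horizontal axis) and cannabis mice (vertical axis), with a dotted line of equality. Signs agreed for 27 of 51 genes (52.9%, against 66.6% of all probes), and Kcnk6 is below 0 on both axes.

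Markers of other cells differed with age as well. In vehicle mice, 10 of 10 oligodendrocyte markers above background were lower in adults and limma called 8 of them (median −1.47), with a summed level of 15.53 to 15.99 at P28 and 14.29 to 14.98 in adults. In cannabis mice 10 of 10 were lower, with 0 called (median −1.01). In the averaged comparison, in which Kcnk6 and Kcnh1 passed, limma called 10 of 10 oligodendrocyte markers lower (median −1.26), 5 of 6 immature neuron markers lower (median −0.41) and 7 of 12 choroid plexus markers lower (median −0.44). It called 2 of 5 dentate granule neuron markers higher there (median 0.29). Of the immature neuron markers, 6 of 6 were lower in both treatments (medians −0.58 and −0.26, with 2 and 0 called). The part of these cells in the Kcnk6 and Kcnh1 differences was not tested. The glial rectifier Kcnj16 differed by 0.07 ± 0.08 in vehicle and 0.03 ± 0.08 in cannabis mice.

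Genes of potassium channel complexes outside the Kcn family were counted too. Of 34 listed, 31 were on the array and 23 above background, and limma called 0 of the 23 in each of the 6 comparisons, against shares of all probes of 0% to 4.84%. At an unadjusted p under 0.05 there were 0 of the 23 at P28 and 2 in adults, against 1.83% and 3.58% of all probes. With age there were 3 in vehicle mice, 2 in cannabis mice and 3 averaged, against 13.4%, 10.6% and 19% of all probes. The interaction had 0, against 2.98%. The lowest adjusted p was 0.0874, for Stx1a in the averaged age comparison. At P28, 9 were higher and 14 lower with cannabis (median −0.03), with the smallest p for Adam22, a synaptic partner of Kcna channels (−0.11 ± 0.06). In adults, 9 were higher and 14 lower (median −0.01). Vapb (−0.19 ± 0.07) and Csnk2a1, a casein kinase subunit that acts on small-conductance channels (−0.27 ± 0.11), had the smallest p there. With age in vehicle mice, 11 were higher and 12 lower (median −0.01). Stx1a, a syntaxin that binds several channels, differed by −0.25 ± 0.08 (limma adjusted p = 0.167), Cntn2, an adhesion protein of the myelinated axon, by 0.38 ± 0.15 and Hcn2, a pacemaker channel, by 0.27 ± 0.11. With age in cannabis mice, 14 were higher and 9 lower (median 0.02), led by Adam23 at −0.26 ± 0.11.

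Potassium channel genes varied unequally between arrays of a group. The pooled within-group SD ran from 0.04 (Kcnd1) to 0.40 (Kcnk2), with a median of 0.12. Kcnk2, the mechanosensitive leak channel TREK1, read 8.59, 8.64, 8.74, 9.31 and 9.10 in adult vehicle and 8.84, 8.97, 8.20, 9.58 and 9.41 in adult cannabis, so that replicates 4 and 5 were the 2 highest in both groups. At P28, replicate 4 was the highest of its group, at 9.24 in vehicle and 9.36 in cannabis. Over the 4 groups, replicates 4 and 5 exceeded 1 to 3 by 0.65 ± 0.10 for Kcnk2 (limma adjusted p = 0.000351) and by 0.46 ± 0.07 for Kcnn2 (adjusted p = 0.000502). In all, 8 of the 51 genes differed between these replicate sets (4 higher and 4 lower), against 23.2% of all probes. The others were Kcnj4 (0.34 ± 0.08) and Kcnab3 (0.23 ± 0.05), higher in replicates 4 and 5, and Kcnf1 (−0.29 ± 0.10), Kcnh1, Kcng2 (−0.18 ± 0.04) and Kcnk6, lower there.

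For 15 genes with several probes above background, all probes had the same sign in 7 at P28, 11 in adults, 10 with age in vehicle mice and 11 with age in cannabis mice. Among the 71 probes of the family above background, limma called 0 in those 4 comparisons, and 2 in the averaged age comparison.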

How the data were processed

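Total hippocampal RNA was labelled as biotinylated cRNA, per the labels, and hybridised to bead arrays. The deposited table holds log2 intensities. Its columns share 1 distribution (median 6.86, quantiles within 0.0046), which means that the authors had equalised the arrays. The submitters' processing notes name Partek, without giving the steps. 2 other tables, with 72 per-sample columns named by slide position that match no label, were not used. Probes over 6.97 on at least 4 arrays were tested (the mode of the unexpressed probes, 6.76, with 3 times its SD of 0.0678 added), which left 18708 of 45281. Depth does not apply to arrays, and the number of arrays limits the precision. Symbols came from the platform annotation: 34885 probes have 1 symbol, 18 several and 10378 none here. All 88 potassium channel genes matched RefSeq (GRCm38.p6).

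limma 3.58.1 (R 4.3.3) fitted a mean per group over 18 arrays, with moderated 2-sided tests adjusted by Benjamini-Hochberg over the probes kept. The fit had 14 residual degrees of freedom and a prior of 3.84. SEs and 95% intervals are those of this fit, which was tested on simulated data. The members and all lists were chosen with earlier results of these data known.

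The genes named are, per comparison, the 5 of smallest p in each direction (or those called), the brightest of each subfamily and the one of smallest p with age in vehicle mice, and the Kcna, Kcnc, choroid plexus, glial and Gi/o-opened genes. Other genes were added after their values were seen. Replicate numbers were checked for pairing. At P28, deviations of same-numbered arrays correlated at 0.196, 0.337, 0.381 and 0.533, all over the minimum of 0.1 set for pairing. The other comparisons did not meet this minimum. No label gives pairs, and the replicate sets that stood apart in all groups could by themselves raise such correlations. The correlations therefore cannot decide whether the P28 arrays were paired. The P28 differences, intervals and p-values above are from the unpaired fit, and a replicate block was fitted as an alternative. Alternatives varied the filter, background correction, prior, weights, probes, groups, blocks and arrays.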

Additional observations from a re-analysis of the deposited data

Results flagged for a closer look

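In 136 groups of arrays (34 genes in 4 groups), 7 held an array whose gap to its nearest neighbour was large against the range of its group. Chance gives such a gap in about 1 in 20 groups. Kcnab2 read 13.02 in P28 cannabis replicate 4, with 13.29 to 13.35 on the other arrays of the group. The A-type channel gene Kcnd2 read 10.78 in adult vehicle replicate 2, against 11.02 to 11.09. Kcnip4 read 7.77 in P28 cannabis replicate 3, against 7.38 to 7.41. Kcnk12, a silent relative of Kcnk13, read 6.86 in P28 cannabis replicate 4, against 6.996 to 7.02. Kcnk13 itself read 8.37 in adult cannabis replicate 1, against 7.67 to 7.86, and Kcnq5 read 7.96 on that array, against 7.41 to 7.55. Kcnv1, a silent subunit, read 8.57 in adult vehicle replicate 3, against 8.09 to 8.21.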

How the results depend on the processing

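The array number and the uncorrected background limit what could be seen: the median 95% interval reached 0.17 (log2) either side at P28 and 0.15 in adults. The count of 0 potassium channel genes for cannabis in adults and for the interaction held under each alternative tried. At P28 it was 0 under each alternative except replicates 4 and 5 only, which left 1 array against 1 and so no P28 spread. The replicate block left the P28 count at 0. For age in vehicle mice, 2 genes passed with array weights, with the replicate block and with replicates 4 and 5 against 1 to 3 as a block (Kcnh1 and Kcnk6 each time), and 0 to 1 when arrays were left out in turn (Kcnk6 without P28 vehicle replicate 4 or adult cannabis replicate 5, Kcnh1 without adult cannabis replicate 4). The replicate block there gave 0.55 for Kcnh1 (limma adjusted p = 0.0250) and −0.25 for Kcnk6 (0.0374), though no label says that these numbers pair the samples. For age in cannabis mice, the count was not 0 with replicates 4 and 5 only, but that left 1 P28 cannabis array and no P28 spread. When arrays were left out in turn, 0 to 1 genes passed. Kcne2 came to −1.02 (limma adjusted p = 0.00375) without P28 cannabis replicate 1 and to −0.47 (adjusted p = 0.365) without replicate 4. For the averaged age difference, 2 became 1 with no filter on dim probes (Kcnk6), 4 with replicates 4 and 5 against 1 to 3 as a block, 1 with replicates 1 to 3 only (Kcnk6), 0 with replicates 4 and 5 only, and 1 to 3 when arrays were left out. Counts over all probes moved too: the 194 with age in vehicle mice became 99 with no filter, 820 with array weights, 376 with only the groups compared, 353 with the replicate block, 417 with replicates 4 and 5 against 1 to 3 as a block, and 4 and 0 in the separate replicate sets, and the 905 of the averaged difference ranged from 12 to 1374. Of 2199 values of named genes under alternatives, 2136 kept direction and side of the threshold, 34 changed sign, and 172 of 172 medians moved by less than the spread between arrays (0.05). Each sign change was in an age difference in vehicle mice, apart from 1 in the interaction. Most began near 0, but Kcns2 (0.11) and Kcnn2 (−0.11) with age and Kcnn2 in the interaction (0.26) did not. Kcnj4 came to 0.00475 with array weights. Kcnma1 came to 0.0513 with array weights, 0.0483 in replicates 1 to 3 and 0.103 as the mean of its probes. Kcnk1 came to 0.0168 with the replicate block and 0.0641 in replicates 1 to 3, where Kcnip3 came to −0.0395. In replicates 4 and 5 only, Kcna6 came to 0.0955, Kcnn2 to 0.0170 and Kcns2 to −0.0604, and Kcnn2 to −0.0570 in the interaction. With single arrays left out, the vehicle age differences ranged from −0.0483 to 0.0243 (Kcna6), −0.0277 to 0.114 (Kcnip3), −0.222 to 0.0345 (Kcnj4), −0.0494 to 0.0186 (Kcnk1), −0.0893 to 0.0708 (Kcnma1), −0.00486 to 0.113 (Kcnmb4), −0.0145 to 0.0476 (Kcnrg), −0.00546 to 0.0990 (Kcnu1) and −0.0543 to 0.0677 (Kcnv1). The cause was not tested. Only the groups compared was not run for the interaction and the averaged difference, which use all groups.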
